A study of Mus musculus with 4 samples.

Results

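Zbp1, Ripk1, Ripk3, Mlkl, Casp8, Pycard, Casp1, Casp4 and Gsdmd are 9 genes of the pathways by which a cell dies with its membrane open, necroptosis and pyroptosis. They were chosen by name, matched to the gene symbols of the count matrices, and all 9 were found among the 55357 genes listed. The samples were single cells from the stroke-side brain hemisphere of wild-type mice, taken at day 14 after ischemic stroke, with hydrogel microspheres placed in the infarct cavity at day 5. There was 1 library per group: IL-4 C1q EV+MAPS (written IL-4/C1q EV), then IL-1a TNFa C1q EV+MAPS (written IL-1a/TNFa/C1q EV), UT EV+MAPS (written UT EV), and MAPS. All 4 groups had a stroke and microspheres; the label of MAPS names the microspheres alone, and those of the other 3 add extracellular vesicles (EV), which the title of the series ties to reactive astrocytes. The labels give neither the number, sex, age nor strain of the animals in a library, and they do not spell out MAPS or UT. With 1 library per group there was no replicate check and no test, so every interval is a 95% interval for counting error only, and effects of the group and of its library cannot be told apart.

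In necroptosis, the kinase RIPK3 phosphorylates MLKL, which then breaks the plasma membrane; RIPK3 is engaged either through RIPK1 downstream of death receptors or through ZBP1, a sensor of Z-form nucleic acid, and caspase-8 holds this route in check by cleaving the kinases. In pyroptosis, inflammasomes recruit caspase-1 through the adaptor ASC (Pycard), or caspase-11 (the product of mouse Casp4) is bound by bacterial lipopolysaccharide, and either caspase cuts gasdermin D (Gsdmd) into a pore-forming fragment. Zbp1, Casp4 and Gsdmd are known as genes that interferon can induce, and in brain tissue the inflammasome genes are best known from microglia and invading myeloid cells.

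The promoters of Casp8, Ripk1 and Casp4 are shown because the interferon genes differed between these libraries. Casp8 and Ripk1 were the members whose promoter held an interferon motif, and Casp4 is given as a member without one. The windows run from 250 bases before to 50 bases after the annotated start, from RefSeq on build GRCm38.p6, and 7 of the 9 members had an entry, which leaves Zbp1 and Gsdmd named only. Both strands were searched for the interferon response element, a pair of GAAA with any 2 bases between, for the same pair with 1 base between (GAAANGAAA), and for the gamma-activated site TTCNNNGAA; capitals mark the matches.
Casp8, chr1:58802252-58802551, plus strand: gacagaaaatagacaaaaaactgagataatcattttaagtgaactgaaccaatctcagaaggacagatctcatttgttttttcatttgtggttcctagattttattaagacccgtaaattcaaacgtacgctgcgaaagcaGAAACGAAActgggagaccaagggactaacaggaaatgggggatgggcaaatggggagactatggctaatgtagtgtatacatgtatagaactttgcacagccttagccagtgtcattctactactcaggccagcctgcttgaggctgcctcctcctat
Ripk1, the downstream of 2 entries, chr13:34002624-34002923, plus strand: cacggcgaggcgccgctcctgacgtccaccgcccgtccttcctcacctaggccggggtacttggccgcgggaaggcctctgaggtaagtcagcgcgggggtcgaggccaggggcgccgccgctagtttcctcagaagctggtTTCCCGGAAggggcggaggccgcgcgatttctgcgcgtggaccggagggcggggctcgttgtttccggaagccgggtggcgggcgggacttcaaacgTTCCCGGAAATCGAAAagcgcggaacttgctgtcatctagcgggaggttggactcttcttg
Casp4, the upstream of 2 entries, chr9:5308599-5308898, plus strand: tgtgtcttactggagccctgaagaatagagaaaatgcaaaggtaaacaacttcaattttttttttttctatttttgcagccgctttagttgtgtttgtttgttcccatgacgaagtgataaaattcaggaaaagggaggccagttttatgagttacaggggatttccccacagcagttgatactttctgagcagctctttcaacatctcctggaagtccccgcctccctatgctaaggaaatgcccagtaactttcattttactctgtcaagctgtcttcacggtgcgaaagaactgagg
Casp8 held GAAANGAAA starting 109 bases before the start. Ripk1 held TTCNNNGAA at 108 and 11 bases before the start, and the element with 2 bases between at 5 bases before it, which overlaps the TTCNNNGAA match beside it. No such letters were found in the upstream Ripk1 entry or in the windows of Ripk3, Mlkl, Casp1, Casp4 and Pycard. Over all 32851 promoters of 300 bases, 3.44% held the element with 2 bases between, 3.17% held GAAANGAAA and 8.3% held TTCNNNGAA. These matches are a description of the letters, not of bound sites.

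UMIs (unique molecule counts) were summed per library and cell class and are given as counts per 1000000 UMIs of that class (CPM). Libraries held 13076 to 15138 barcodes and 45691141 to 81189155 UMIs, with a median of 2462 to 2663 UMIs per barcode in the 3 EV libraries and 4541 in MAPS. MAPS also had the highest median mitochondrial share, 1.43% against 0.546% to 0.573%. Barcodes reached down to 500 UMIs, but to 1233 in the library IL-1a/TNFa/C1q EV, and any pair of libraries had 43 to 64 barcodes in common. Cell classes were assigned to single cells by marker genes, 82.3% to 97.4% of kept cells received one, and every marker of a compared class was detected in that class in each library. The 10 classes with at least 50 cells in each library were compared, with 5087, 5249, 4618 and 6963 microglia, 574, 446, 293 and 51 monocytes/macrophages, 750, 1389, 693 and 1183 T cells and 1420, 951, 1139 and 132 endothelial cells in IL-4/C1q EV, IL-1a/TNFa/C1q EV, UT EV and MAPS. Border macrophages, neutrophils, pericytes and oligodendrocyte precursors reached 50 cells in the EV libraries alone and were compared among those.

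Zbp1, the nucleic acid sensor at the head of the ZBP1 to RIPK3 route, had the largest ratios of any measured member for IL-4/C1q EV over the other EV libraries in microglia, monocytes/macrophages, T cells and endothelial cells. Its level was higher in IL-4/C1q EV than in both other EV libraries in microglia, monocytes/macrophages, endothelial cells, T cells, B cells, border macrophages and neutrophils. This did not hold in oligodendrocytes. In ependymal and choroid plexus cells IL-4/C1q EV was the lowest EV library, at 5.61 and 5.47 CPM. The EV intervals overlapped in both of these classes, and also in astrocytes and in neuroblasts. In microglia, Zbp1 had 88.9 CPM (84.1 to 93.9, 1291 UMIs) in IL-4/C1q EV, 22.3 CPM in IL-1a/TNFa/C1q EV, 28.3 CPM in UT EV and 16.7 CPM in MAPS. The interval in IL-4/C1q EV lay above those of the other 3 libraries. The ratio was 3.14 (2.81 to 3.51) for IL-4/C1q EV over UT EV and 3.98 (3.53 to 4.5) over IL-1a/TNFa/C1q EV.

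In endothelial cells Zbp1 stood at 208 CPM (194 to 224) in IL-4/C1q EV, 23.2 CPM (17.7 to 29.9) in IL-1a/TNFa/C1q EV, 69.3 CPM (60.1 to 79.7) in UT EV and 16.6 CPM in MAPS from 11 UMIs. Thus the 3 EV libraries were separate from each other, with ratios of 3.0 (2.57 to 3.53) for IL-4/C1q EV over UT EV, 8.97 (6.89 to 11.9) for IL-4/C1q EV over IL-1a/TNFa/C1q EV and 0.335 (0.247 to 0.449) for IL-1a/TNFa/C1q EV over UT EV. Neutrophil markers in the endothelial class were also highest in IL-4/C1q EV, but the other libraries were not in the order of Zbp1. These markers summed over 10 genes to 84.0 CPM in IL-4/C1q EV, 24.4 CPM in IL-1a/TNFa/C1q EV, 19.1 CPM in UT EV and 74.1 CPM in MAPS. Of the 10, 0, 2, 1 and 3 were at 0. Their part in the Zbp1 difference was not tested. The endothelial markers themselves summed to 25835 CPM in IL-4/C1q EV, 23733 CPM in IL-1a/TNFa/C1q EV, 25029.8 CPM in UT EV and 24353 CPM in MAPS.

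Monocytes/macrophages held 315 CPM of Zbp1 (296 to 335) in IL-4/C1q EV, 122 CPM in IL-1a/TNFa/C1q EV, 173 CPM in UT EV and 78.5 CPM in MAPS, where 51 cells gave 29 UMIs. The ratio of IL-4/C1q EV was 1.82 (1.62 to 2.04) over UT EV and 2.59 (2.28 to 2.94) over IL-1a/TNFa/C1q EV. Dendritic markers in this class summed to 139.8 CPM in IL-4/C1q EV, 112 CPM in IL-1a/TNFa/C1q EV, 49.5 CPM in UT EV and 417 CPM in MAPS, with 0, 0, 1 and 1 of 10 at 0, and their part was not tested. T cells had 245 CPM in IL-4/C1q EV against 138 CPM in IL-1a/TNFa/C1q EV, 124 CPM in UT EV and 147 CPM in MAPS, and the last 3 intervals overlapped. The T class of IL-4/C1q EV also held more NK marker UMIs, 699 CPM over 9 genes (2 at 0), against 257 CPM (2 at 0) in IL-1a/TNFa/C1q EV, 233 CPM (2 at 0) in UT EV and 359.9 CPM (none at 0) in MAPS, while monocyte/macrophage markers summed to 1091 CPM in IL-4/C1q EV, 694 CPM in IL-1a/TNFa/C1q EV, 656 CPM in UT EV and 2428 CPM in MAPS, with 2, 2, 2 and 1 of 10 at 0. The part of both in the T cell result was not tested.

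Small classes went the same way with wider intervals. Border macrophages had 266 CPM of Zbp1 (225 to 312) in IL-4/C1q EV, 88.3 CPM in IL-1a/TNFa/C1q EV and 70.9 CPM in UT EV. Neutrophils had 369 CPM (322 to 421) in IL-4/C1q EV, 119.9 CPM from 23 UMIs in IL-1a/TNFa/C1q EV and 90.4 CPM from 7 UMIs in UT EV, over 440, 82 and 51 cells. In B cells the levels were 201 CPM in IL-4/C1q EV, 64.9 CPM in IL-1a/TNFa/C1q EV, 89.0 CPM in UT EV and 74.3 CPM in MAPS. These 3 classes are leukocytes, as are the monocytes and T cells above.

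Oligodendrocytes differed in the order of the libraries. Zbp1 stood at 20.4 CPM (16.4 to 25.1) in IL-4/C1q EV, 33.7 CPM (29.1 to 38.8) in IL-1a/TNFa/C1q EV, 16.6 CPM (13.6 to 20.2) in UT EV and 3.46 CPM in MAPS. The ratio of IL-1a/TNFa/C1q EV over UT EV was 2.03 (1.59 to 2.6), and that of IL-4/C1q EV over IL-1a/TNFa/C1q EV was 0.606 (0.466 to 0.783). Over 18 interferon response genes that include no member, the summed level in oligodendrocytes was instead highest in IL-4/C1q EV, at 984 CPM, against 631 CPM in IL-1a/TNFa/C1q EV, 473 CPM in UT EV and 269 CPM in MAPS. Gm12250, an interferon-inducible GTPase gene, went with Zbp1, at 26.6 CPM in IL-4/C1q EV, 69.5 CPM in IL-1a/TNFa/C1q EV, 23.2 CPM in UT EV and 1.04 CPM in MAPS. T cell markers in the oligodendrocyte class summed to 30.3 CPM in IL-4/C1q EV, 56.3 CPM in IL-1a/TNFa/C1q EV, 38.2 CPM in UT EV and 56.9 CPM in MAPS, none of 10 at 0, and fibroblast markers to 23.9, 61.0, 3.23 and 14.7 CPM in the same libraries, with 2, 1, 3 and 1 of 8 at 0. NK markers there summed to 1.61, 18.9, 10.7 and 3.98 CPM (7, 0, 2 and 2 of 9 at 0) and B cell markers to 8.03, 37.0, 11.8 and 41.7 CPM (3, 0, 3 and 0 of 8 at 0). Other lists were instead highest in IL-4/C1q EV. Monocyte/macrophage markers summed to 706, 398, 407 and 181 CPM (1, 2, 2 and 2 of 10 at 0). Neutrophil markers summed to 184, 135, 69.2 and 42.2 CPM (0, 1, 4 and 6 of 10 at 0). The part of these lists in the oligodendrocyte result was not tested.

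**Figure D1:**
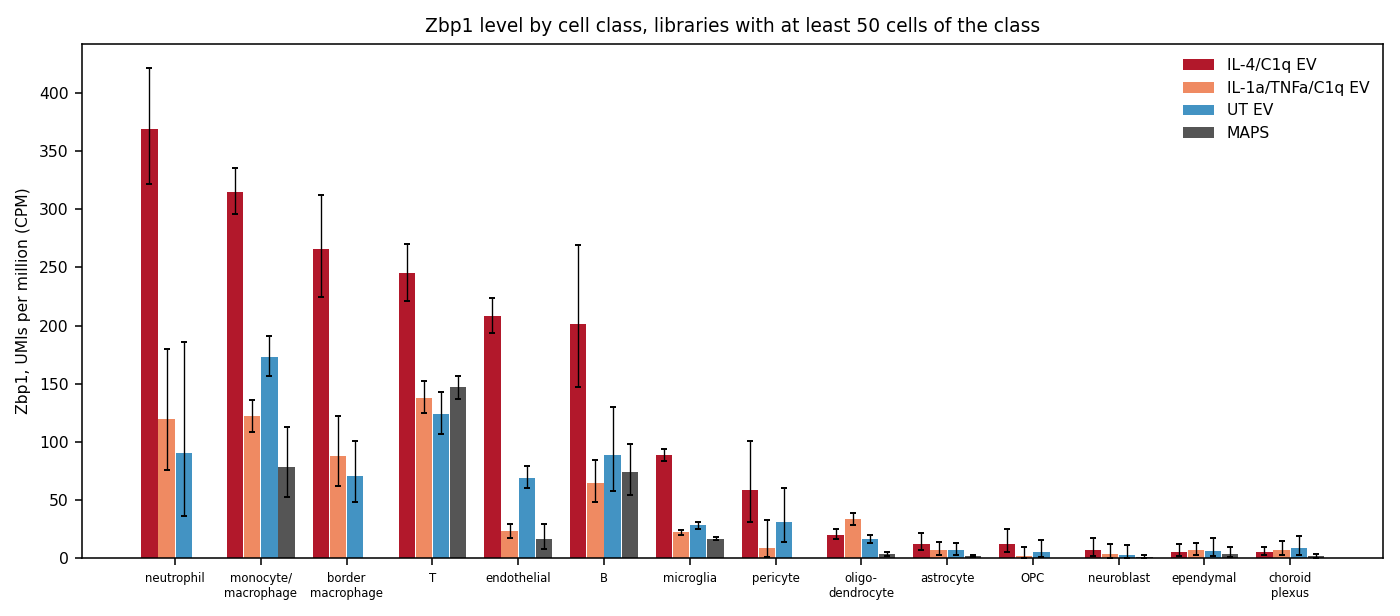
Zbp1 level in CPM of the class (vertical axis) by cell class and library; bars are levels of 1 library and lines are exact Poisson 95% intervals. IL-4/C1q EV is highest in leukocytes, endothelial cells and microglia (88.9 CPM against 16.7 to 28.3 CPM), whereas IL-1a/TNFa/C1q EV is highest in oligodendrocytes (33.7 CPM); a library with under 50 cells of a class has no bar.

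Among the 10 classes compared in all libraries, monocytes/macrophages led in IL-4/C1q EV (315 CPM) and in UT EV (173 CPM), and their intervals did not overlap that of T cells, next in order among these. In IL-4/C1q EV the neutrophils, outside these 10, were at 369 CPM, and the interval of border macrophages overlapped that of monocytes/macrophages. T cells led in MAPS at 147 CPM, above monocytes/macrophages at 78.5 CPM. In IL-1a/TNFa/C1q EV, T cells at 138 CPM and monocytes/macrophages at 122 CPM did not differ beyond their intervals. In each library the level in microglia was below those in T cells, B cells and monocytes/macrophages. Astrocytes, neuroblasts, ependymal cells and choroid plexus cells held 1.54 to 12.8 CPM, and their intervals overlapped within each library.

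The share of cells with a Zbp1 UMI gave the same order of the libraries in microglia. With each cell thinned to 1000 UMIs, 7.42% of microglia in IL-4/C1q EV held a Zbp1 UMI, against 1.71% in IL-1a/TNFa/C1q EV, 2.21% in UT EV and 1.07% in MAPS. At full depth the shares were 18.7%, 5.28%, 6.91% and 6.95%, at median depths of 2437, 2344, 2711 and 4590 UMIs per cell, so that MAPS, the deepest, was there level with UT EV. Thinning kept 4971 of 5087, 5249 of 5249, 4519 of 4618 and 6910 of 6963 microglia. Neuroblasts, a class expected to lack Zbp1, had thinned shares of 0.407% in IL-4/C1q EV, 0 of 234 cells in IL-1a/TNFa/C1q EV (which allows up to 1.28%), 0 of 208 cells in UT EV (up to 1.44%) and 0.249% in MAPS, and full-depth shares of 1.82%, 0.855%, 0.901% and 0.713% at median depths of 1939, 1880.5, 2191 and 2242 UMIs.

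Ripk1, the kinase that links death receptors to either survival signalling or cell death, had 23.8 CPM (21.3 to 26.4) in microglia of IL-4/C1q EV, 16.3 CPM (14.4 to 18.5) in IL-1a/TNFa/C1q EV, 23.2 CPM (20.9 to 25.8) in UT EV and 41.5 CPM in MAPS. IL-1a/TNFa/C1q EV was the lowest of the 4 and its interval stood apart, with a ratio of 0.702 (0.594 to 0.827) over UT EV, while IL-4/C1q EV over UT EV was 1.02 (0.878 to 1.19). The same library was lowest in T cells at 10.6 CPM from 32 UMIs, against 15.5 CPM in IL-4/C1q EV, 19.4 CPM in UT EV and 46.2 CPM in MAPS. Across classes, Ripk1 in the EV libraries ran from 2.46 CPM in oligodendrocytes to 25.3 CPM in endothelial cells, and neighbouring classes overlapped throughout.

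Ripk3, the kinase that acts on MLKL, was sparse. Microglia held 29, 50, 55 and 169 UMIs of it in IL-4/C1q EV, IL-1a/TNFa/C1q EV, UT EV and MAPS, or 2.0 CPM (1.34 to 2.87), 3.26 CPM (2.42 to 4.3), 3.63 CPM (2.74 to 4.73) and 4.11 CPM (3.51 to 4.78). The ratio of IL-4/C1q EV over UT EV was 0.55 (0.338 to 0.877), a difference resting on 29 and 55 UMIs, too few for a count that asked for at least 100 UMIs. Among the classes compared in all 4 libraries Ripk3 was highest in T cells and monocytes/macrophages, with 8.04 CPM in T cells of IL-4/C1q EV, 5.94 CPM in IL-1a/TNFa/C1q EV, 9.7 CPM in UT EV and 24.0 CPM in MAPS. No class other than these and microglia held more than 6 UMIs of Ripk3 in any library among the 10 compared.

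Mlkl, the protein that opens the membrane in necroptosis, was the sparsest member. Endothelial cells held 25 UMIs in IL-4/C1q EV, 8 in IL-1a/TNFa/C1q EV, 14 in UT EV and 8 in MAPS, or 7.02 CPM (4.54 to 10.4), 3.1 CPM (1.34 to 6.1), 4.85 CPM (2.65 to 8.14) and 12.1 CPM (5.22 to 23.8), and all 4 intervals overlapped. Monocytes/macrophages held 19, 10, 6 and 0 UMIs in the same libraries, and the 0 in MAPS allows up to 8.12 CPM, taken at 3 counts. Microglia held 9, 5, 2 and 14, that is 0.62 CPM in IL-4/C1q EV and at most 0.34 CPM in the others, although 4618 to 6963 microglia were read per library. No Mlkl UMI was seen in astrocytes, which allows up to 2.96 CPM in IL-4/C1q EV, 3.0 CPM in IL-1a/TNFa/C1q EV, 2.37 CPM in UT EV and 0.4 CPM in MAPS at 3 counts.

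Since Zbp1, Ripk3 and Mlkl act in sequence, cells with a UMI of each were counted at full depth. In microglia there were 0 such cells in each EV library and 2 in MAPS; in monocytes/macrophages 0 in IL-4/C1q EV, 1 in IL-1a/TNFa/C1q EV, 0 in UT EV and 0 in MAPS; and in T cells 0 in each EV library and 4 in MAPS. Zbp1 and Ripk3 were seen together in 7 microglia of each EV library and 17 of MAPS, in 17, 11, 10 and 2 monocytes/macrophages of IL-4/C1q EV, IL-1a/TNFa/C1q EV, UT EV and MAPS, and in 6, 5, 3 and 59 T cells of the same libraries. At a few CPM per gene, a missing UMI in a cell does not show that the transcript was missing.

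Casp8, which stands between the pathways as initiator of apoptosis and brake on necroptosis, was higher in IL-4/C1q EV in monocytes/macrophages and close between the EV libraries in microglia. Monocytes/macrophages had 61.1 CPM (52.9 to 70.1) in IL-4/C1q EV, 34.3 CPM (27.6 to 42.1) in IL-1a/TNFa/C1q EV, 36.8 CPM (29.3 to 45.5) in UT EV and 62.2 CPM (39.5 to 93.4) in MAPS. The interval in IL-4/C1q EV lay above those of the other EV libraries and overlapped that of MAPS. The Casp8 ratios were 1.66 (1.28 to 2.17) for IL-4/C1q EV over UT EV and 1.78 (1.38 to 2.31) over IL-1a/TNFa/C1q EV. T cells had 76.7 CPM in IL-4/C1q EV, 44.6 CPM in IL-1a/TNFa/C1q EV, 60.8 CPM in UT EV and 89.6 CPM in MAPS. The ratio was 1.72 (1.34 to 2.21) for IL-4/C1q EV over IL-1a/TNFa/C1q EV. The NK markers given above were also higher in that comparison, but over all libraries they did not follow the order of Casp8. Their part was not tested. In microglia the levels were 71.4, 64.1, 66.9 and 92.4 CPM in IL-4/C1q EV, IL-1a/TNFa/C1q EV, UT EV and MAPS. By class, Casp8, whose promoter is printed above, ran from 44.6 to 92.4 CPM in microglia, T cells and endothelial cells and from 1.0 to 8.89 CPM in astrocytes. In classes built from Leiden clusters the ratio in monocytes/macrophages for IL-4/C1q EV over UT EV was 1.44 and that over IL-1a/TNFa/C1q EV was 1.48, both under the 1.5-fold bound, and the ratio in T cells for IL-4/C1q EV over IL-1a/TNFa/C1q EV was 1.49 after thinning. The Leiden monocyte/macrophage class was larger than the marker-gated class, with 4183 cells in its largest cluster, and so held other cells as well.

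Pycard, the ASC adaptor, had 596 CPM (584 to 609) in microglia of IL-4/C1q EV, 694 CPM (681 to 708) in IL-1a/TNFa/C1q EV, 636 CPM (624 to 649) in UT EV and 278 CPM (273 to 283) in MAPS. All 4 intervals were separate, but IL-4/C1q EV and UT EV differed by little, with a ratio of 0.937 (0.911 to 0.965). In each EV library Pycard was highest in microglia, then monocytes/macrophages, at 481 CPM in IL-4/C1q EV, 579 CPM in IL-1a/TNFa/C1q EV, 543 CPM in UT EV and 187 CPM in MAPS. T cells and B cells followed at 219 to 403 CPM, whereas the endothelial, choroid plexus and neural classes compared in the 4 libraries held at most 85.2 CPM. Thinned to 1000 UMIs, 42.7% of microglia in IL-4/C1q EV, 47.7% in IL-1a/TNFa/C1q EV, 44.3% in UT EV and 22.9% in MAPS held a Pycard UMI, against 2.85%, 2.14%, 2.88% and 2.74% of neuroblasts at the same depth.

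Casp1, the inflammasome caspase that matures interleukin-1β, had 45.4 CPM (42.0 to 49.0) in microglia of IL-4/C1q EV, 49.2 CPM in IL-1a/TNFa/C1q EV, 49.7 CPM in UT EV and 34.0 CPM in MAPS. The 3 EV libraries overlapped in microglia. Casp1 was a leukocyte and microglial gene here, with 32.2 to 43.3 CPM in T cells over the 4 libraries and 2.81 to 4.26 CPM in endothelial cells, from 2 to 12 UMIs.

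Casp4, the mouse gene for caspase-11, had 61.6 CPM (57.6 to 65.8) in microglia of IL-4/C1q EV, 43.2 CPM in IL-1a/TNFa/C1q EV, 54.1 CPM (50.4 to 57.9) in UT EV and 111 CPM (108 to 114) in MAPS. IL-1a/TNFa/C1q EV stood lowest, with a ratio of 0.798 (0.72 to 0.886) over UT EV, and IL-4/C1q EV stood 1.43-fold above it (1.29 to 1.58). Endothelial cells had 18.3 CPM in IL-4/C1q EV, 11.2 CPM in IL-1a/TNFa/C1q EV, 10.7 CPM in UT EV and 28.7 CPM in MAPS. The endothelial ratio of 1.7 (1.09 to 2.7) for IL-4/C1q EV over UT EV rests on 65 and 31 UMIs and was 1.35 in Leiden clusters, and that of 1.63 (1.03 to 2.61) over IL-1a/TNFa/C1q EV went to 0.997 after thinning. In all 4 libraries microglia were the class with the highest Casp4 level among those compared.

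Gsdmd, the pore-former of pyroptosis, differed little between the EV libraries in microglia. These cells had 60.9 CPM (56.9 to 65.0) in IL-4/C1q EV, 55.5 CPM (51.9 to 59.4) in IL-1a/TNFa/C1q EV, 60.1 CPM (56.3 to 64.1) in UT EV and 70.8 CPM (68.3 to 73.4) in MAPS, and the EV intervals overlapped. Monocytes/macrophages were at the same level as microglia in each library, 63.8, 54.6, 61.8 and 70.4 CPM in IL-4/C1q EV, IL-1a/TNFa/C1q EV, UT EV and MAPS. Endothelial cells, at 37.9, 29.0, 32.9 and 28.7 CPM, also held Gsdmd while holding little Casp1. Cells with UMIs of Casp1, Pycard and Gsdmd together numbered 81, 99, 128 and 360 in microglia, and those with Casp4 and Gsdmd 121, 101, 136 and 908. MAPS, with the largest numbers, was the deepest library, held the most microglia and had the highest Casp4 and Gsdmd levels in them. Its Casp1 and Pycard levels in microglia were the lowest. The part of each in these numbers was not tested.

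**Figure D2:**
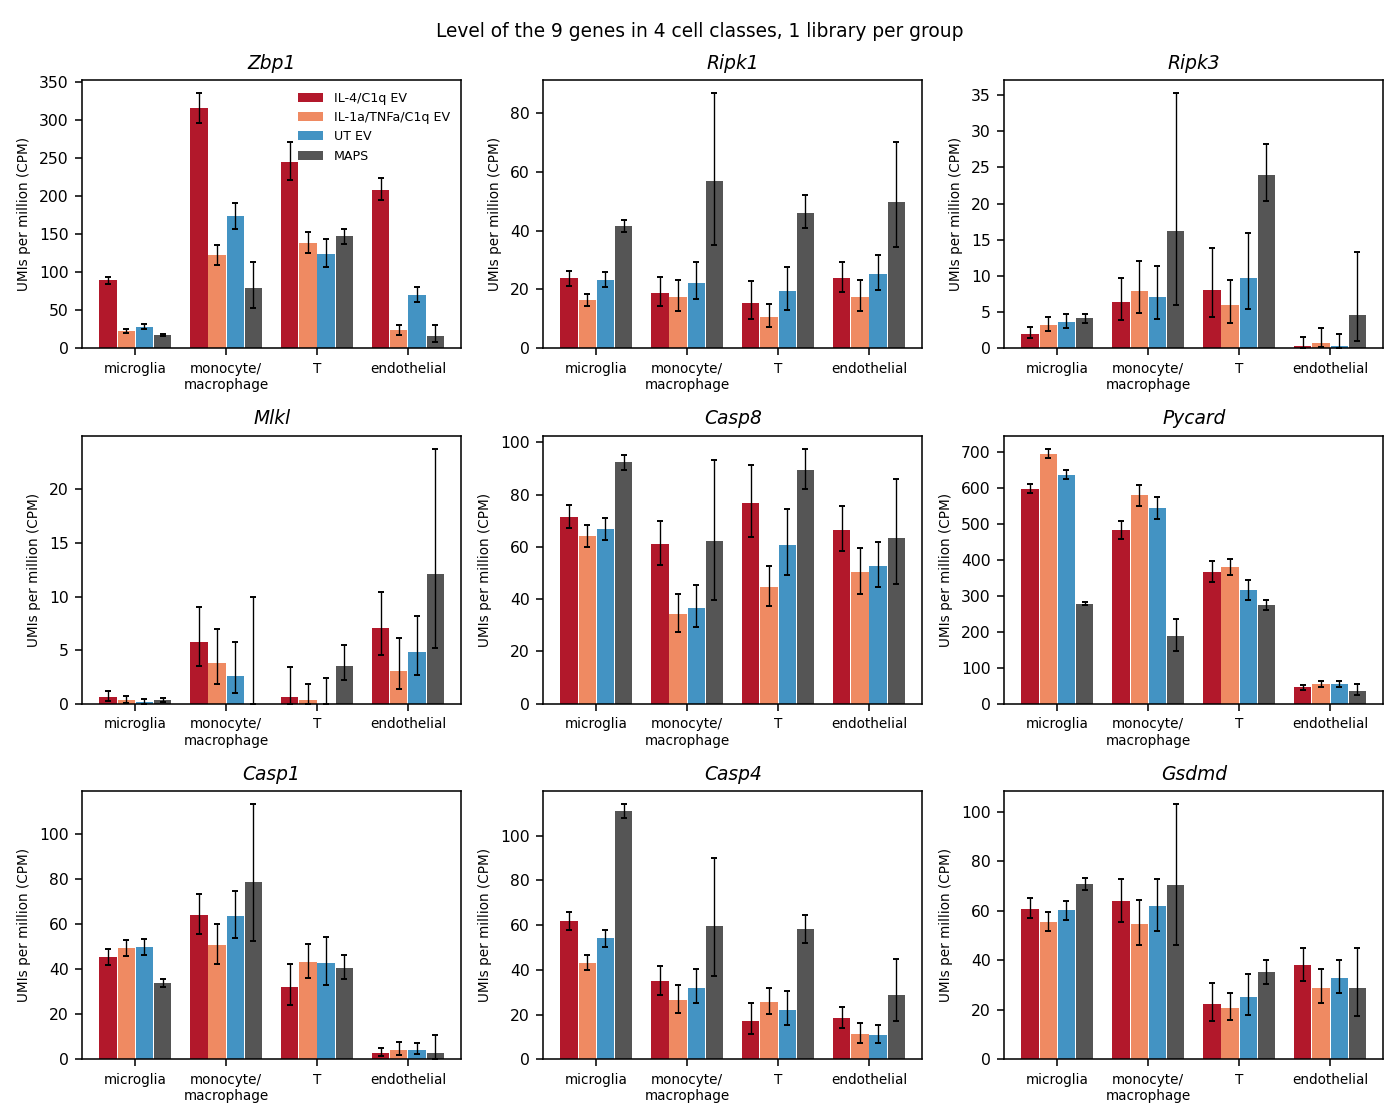
Level of each of the 9 genes in CPM of the class (vertical axis, its own scale per gene) in 4 cell classes; bars are 1 library each and lines are exact Poisson 95% intervals. Zbp1 separates IL-4/C1q EV from the rest in all 4 classes, Pycard in microglia is lowest in MAPS (278 CPM against 596 to 694 CPM), and Mlkl and Ripk3 rest on few UMIs.

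A member was counted as higher or lower where its CPM ratio was at least 1.5 or at most its inverse, among genes with at least 30 UMIs over both libraries. For IL-4/C1q EV over UT EV, 1 of 8 members was higher (Zbp1) and 1 lower (Ripk3) in microglia, where 3.10% and 6.13% of all genes were; in monocytes/macrophages 2 of 8 were higher (Zbp1, Casp8) and 0 lower, against 9.44% and 6.91% of all genes. In T cells 1 of 7 was higher (Zbp1) and 0 lower, against 5.65% and 8.22%, and in endothelial cells 2 of 7 were higher (Zbp1, Casp4) and 0 lower, against 4.60% and 6.74%. Gsdmd, Casp1, Ripk1 and Pycard passed the fold in none of these 4 classes where they were measured. Apart from Zbp1, 0 or 1 member per class was higher, so the counts do not set the 9 genes as a list apart from all genes.

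For IL-4/C1q EV over IL-1a/TNFa/C1q EV, 1 of 8 members was higher (Zbp1) and 1 lower (Ripk3) in microglia, where 6.80% and 4.15% of all genes were. Monocytes/macrophages had 2 of 8 higher (Zbp1, Casp8) and 0 lower, against 17.0% and 3.66%; T cells had 2 of 8 higher (Zbp1, Casp8) and 0 lower, against 9.72% and 5.62%. Endothelial cells had 3 of 7 higher (Zbp1, Mlkl, Casp4) and 0 lower, against 9.47% and 5.14%, and the Mlkl ratio of 2.27 had an interval of 0.991 to 5.82. For IL-1a/TNFa/C1q EV over UT EV, 0 of 8 members passed the fold in microglia, where 2.23% of all genes were higher and 8.07% lower, and 0 of 8 in monocytes/macrophages, against 3.96% and 14.0%. In T cells 0 of 8 were higher and 2 lower (Ripk1, Ripk3), against 4.61% and 12%, and in endothelial cells 0 of 6 were higher and 1 lower (Zbp1), against 2.67% and 10.2%. The 3 comparisons share libraries and are not independent of each other.

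**Figure D3:**
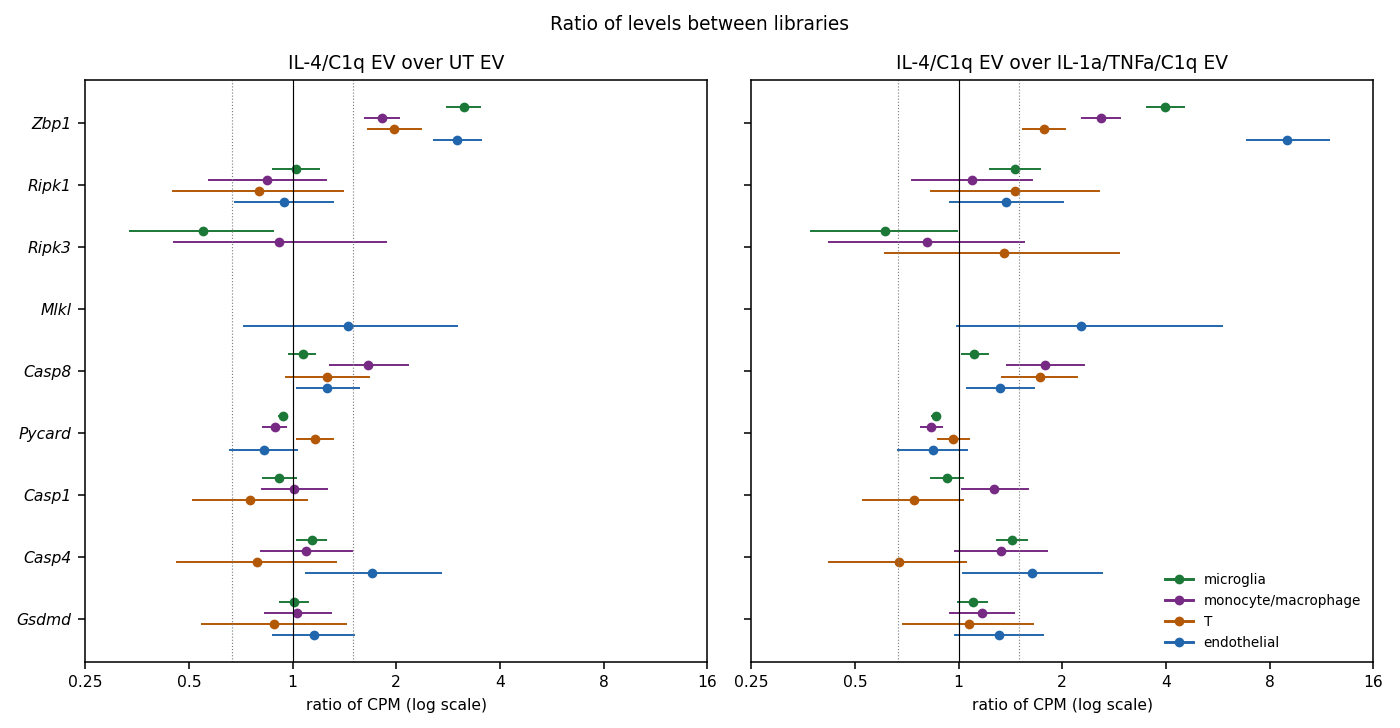
Ratio of CPM (horizontal axis, log scale) for each of the 9 genes in 4 cell classes, IL-4/C1q EV over UT EV on the left and over IL-1a/TNFa/C1q EV on the right; points are ratios of 2 libraries, lines are exact 95% counting intervals, and dotted lines mark the 1.5-fold bounds. Zbp1 lies right of the upper bound in every class (1.77 to 8.97), and most other members straddle 1; genes with under 30 UMIs over both libraries have no point.

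Against MAPS, levels must be read with the whole class in view: in microglia the median gene lay at −1.12 for IL-4/C1q EV, −1.25 for IL-1a/TNFa/C1q EV and −1.05 for UT EV in log2 CPM ratio over MAPS. Members spread around that shift. Pycard had log2 ratios of 1.10, 1.32 and 1.20 and Casp1 of 0.42, 0.53 and 0.55 for the same 3 libraries over MAPS, and Zbp1 of 2.41, 0.42 and 0.76, so these 3 genes lay above the median gene in each EV library. Casp4, at −0.85, −1.36 and −1.04, and Ripk1, at −0.81, −1.35 and −0.84, lay near the median gene. Casp8, at −0.37, −0.53 and −0.47, and Gsdmd, at −0.22, −0.35 and −0.24, lay below 0 in CPM but above the median gene, and with TMM scaling, which brings the median gene to −0.21, −0.26 and −0.21, the ratios of both were above 1. With TMM the ratios over MAPS were 4.02, 4.95 and 4.08 for Pycard, 2.5, 2.86 and 2.6 for Casp1 and 9.96, 2.64 and 3.02 for Zbp1. Depth, mitochondrial share and a list of 8 genes that rise in tissue dissociation moved with this comparison, the list summing in microglia to 12446 CPM in IL-4/C1q EV, 10453 CPM in IL-1a/TNFa/C1q EV, 14519 CPM in UT EV and 21451 CPM in MAPS, and their part was not tested.

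Of 66 other genes of the pathways (sensors, outputs, receptors, brakes, apoptosis genes, inhibitors and membrane repair), 63 were measured in microglia for IL-4/C1q EV over UT EV, of which 6 were past 1.5-fold higher and 1 lower, where 3.10% and 6.13% of all genes were. Their median log2 ratio was 0.01 beside −0.07 for all genes. Of the 6 that were higher, 5 belonged to the 6 guanylate-binding protein and immunity-related GTPase genes, which act upstream of caspase-11, with a median log2 ratio of 0.76. Gm12250, which encodes the GTPase IRGB10, had 69.0 CPM in IL-4/C1q EV and 27.4 CPM in UT EV, and Irgm1 had 37.6 CPM against 15.4 CPM. Adar, whose product edits the RNA that ZBP1 can bind, had 33.2 CPM in IL-4/C1q EV and 18.8 CPM in UT EV, a ratio of 1.76 (1.52 to 2.05). Among 8 measured inflammasome sensors and 16 brakes of necroptosis, 0 passed the fold in microglia in this comparison, which is near what those shares of all genes give; Nlrp3, the sensor most studied in microglia, had 112 CPM in IL-4/C1q EV, 79.7 CPM in IL-1a/TNFa/C1q EV, 113 CPM in UT EV and 110.0 CPM in MAPS.

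In endothelial cells all 6 GTPase genes were past 1.5-fold higher in IL-4/C1q EV over IL-1a/TNFa/C1q EV, where 9.47% of all genes were. Their median log2 ratio was 1.62, beside 0.04 for all genes. For IL-4/C1q EV over UT EV 5 of 6 were higher, where 4.60% of all genes were (0.71 beside −0.06). All 6 were lower in IL-1a/TNFa/C1q EV over UT EV, where 10.2% of all genes were (−0.98 beside −0.09). Gm12250 there had 124 CPM in IL-4/C1q EV, 18.6 CPM in IL-1a/TNFa/C1q EV and 66.9 CPM in UT EV. Fas, the death receptor, went the other way in endothelial cells, with 67.1 CPM in IL-4/C1q EV and 139 CPM in UT EV (ratio 0.481, 0.409 to 0.566).

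In monocytes/macrophages, Il1b and Il18, cytokines that caspase-1 matures, were past 1.5-fold for IL-4/C1q EV over UT EV. Il1b had 1055 CPM in IL-4/C1q EV, 1166 CPM in IL-1a/TNFa/C1q EV, 667 CPM in UT EV and 1599 CPM in MAPS, with ratios of 1.58 (1.49 to 1.68) for IL-4/C1q EV and 1.75 (1.64 to 1.86) for IL-1a/TNFa/C1q EV over UT EV. Il18 had 56.5 CPM in IL-4/C1q EV, 36.5 CPM in IL-1a/TNFa/C1q EV, 35.9 CPM in UT EV and 27.1 CPM in MAPS, a ratio of 1.57 (1.21 to 2.07) for IL-4/C1q EV over UT EV. Il1a, a cytokine released without that step, had 27.0 CPM in IL-4/C1q EV, 37.7 CPM in IL-1a/TNFa/C1q EV, 31.1 CPM in UT EV and 78.5 CPM in MAPS and did not pass the fold over UT EV. In all, 9 of 53 measured pathway genes were higher and 2 lower for IL-4/C1q EV over UT EV, where 9.44% and 6.91% of all genes were, with a median log2 ratio of 0.11 beside 0.01 for all genes. In T cells 6 of 43 were higher and 5 lower, where 5.65% and 8.22% of all genes were, with a median of 0.12 beside −0.05; Otulin, a deubiquitinase that restrains death signalling, had 45.2 CPM in IL-4/C1q EV and 77.6 CPM in UT EV (ratio 0.582, 0.429 to 0.785).

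In microglia and endothelial cells the summed interferon response genes had the same order of the libraries as Zbp1. The orders differed in oligodendrocytes, as given above, and in monocytes/macrophages and T cells. In T cells the sum was lowest in MAPS, at 3047 CPM, while Zbp1 was at 147 CPM in MAPS and 124 CPM in UT EV. All 18 interferon response genes were past 1.5-fold higher in microglia for IL-4/C1q EV over UT EV, where 3.10% of all genes were, with a median log2 ratio of 1.99. This list was chosen with earlier results of these data known. Their summed level in microglia was 4940.4 CPM in IL-4/C1q EV, 1325 CPM in IL-1a/TNFa/C1q EV, 1520.2 CPM in UT EV and 939 CPM in MAPS, and in endothelial cells 19959, 5721, 10186 and 2667 CPM in the same libraries. Microglia thinned to 1000 UMIs were therefore put into 4 ranges by their UMIs of these 18 genes, which do not include Zbp1. Cells with 6 or more made up 32.4% of microglia in IL-4/C1q EV, 2.88% in IL-1a/TNFa/C1q EV, 3.32% in UT EV and 2.01% in MAPS, and cells with 0 made up 4.14% of them in IL-4/C1q EV, against 45.8% in IL-1a/TNFa/C1q EV, while MAPS had 62.9%.

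Within a library, Zbp1 was highest in the top range. With 6 or more interferon UMIs, microglia had 123 CPM of Zbp1 (107 to 141) in IL-4/C1q EV, 106 CPM (60.6 to 172) in IL-1a/TNFa/C1q EV, 167 CPM (108 to 246) in UT EV and 122 CPM (71.2 to 196) in MAPS, and the 4 intervals overlapped. With 3 to 5 the levels were 65.4 CPM (54.5 to 77.9) in IL-4/C1q EV, 31.4 CPM (17.2 to 52.7) in IL-1a/TNFa/C1q EV, 46.9 CPM (29.8 to 70.4) in UT EV and 57.1 CPM (35.8 to 86.5) in MAPS. With 1 to 2 they were 43.1 CPM (32.3 to 56.4), 17.8 CPM (12.7 to 24.2), 20.7 CPM (at most 27.9) and 9.31 CPM (5.61 to 14.5). With 0 they were 58.3 CPM (30.1 to 102) from 12 UMIs in IL-4/C1q EV, 9.56 CPM in IL-1a/TNFa/C1q EV, 10.5 CPM in UT EV and 4.83 CPM in MAPS. At the top the libraries were thus not separated by their intervals, which were wide. With 3 to 5, the interval of IL-4/C1q EV lay above that of IL-1a/TNFa/C1q EV and overlapped those of UT EV and MAPS. In the 2 lowest ranges IL-4/C1q EV stayed above the rest. These ranges are not cell types, and many cells lie at their bounds: in IL-4/C1q EV 451 microglia held exactly 6 such UMIs and 571 held 5.

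Among the other members, Pycard was highest in the top range in each library. It stood there at 605 CPM in IL-4/C1q EV, 781 CPM in IL-1a/TNFa/C1q EV, 813 CPM in UT EV and 367 CPM in MAPS. In the lowest range it stood at 544, 644, 603 and 262 CPM. Gsdmd was lowest in the top range in each library, at 63.4, 39.7, 33.3 and 43.2 CPM, against 92.2, 55.3, 63.7 and 80.1 CPM in the lowest range. Casp8 was highest in the lowest range in each library, at 87.4, 82.3, 79.7 and 123 CPM, against 79.6, 39.7, 73.3 and 79.1 CPM in the top range. For Gsdmd and Casp8, the top range outside IL-4/C1q EV and the lowest range in IL-4/C1q EV held few cells and few UMIs. Their orders over the ranges are thus not shown to exceed counting error. Pycard rests on the same few cells in these ranges, and its order is not shown to exceed counting error in every library. Casp4 in IL-4/C1q EV had 34.0 CPM from 7 UMIs, 67.5, 71.1 and 79.6 CPM, in the order of the ranges. It was not in that order in IL-1a/TNFa/C1q EV (46.6, 51.2, 42.6 and 46.4 CPM) or UT EV (64.8, 58.4, 57.1 and 73.3 CPM), and ran the other way in MAPS (115, 104, 101 and 93.5 CPM). With the same few cells in these ranges, the orders of Casp4 are likewise not shown to exceed counting error. Casp1 in IL-4/C1q EV had 48.5, 38.2, 51.9 and 50.3 CPM. Ripk1, Ripk3 and Mlkl had under 5 UMIs in at least 1 range of every library except Ripk1 in UT EV, where the top range held 8.

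**Figure D4:**
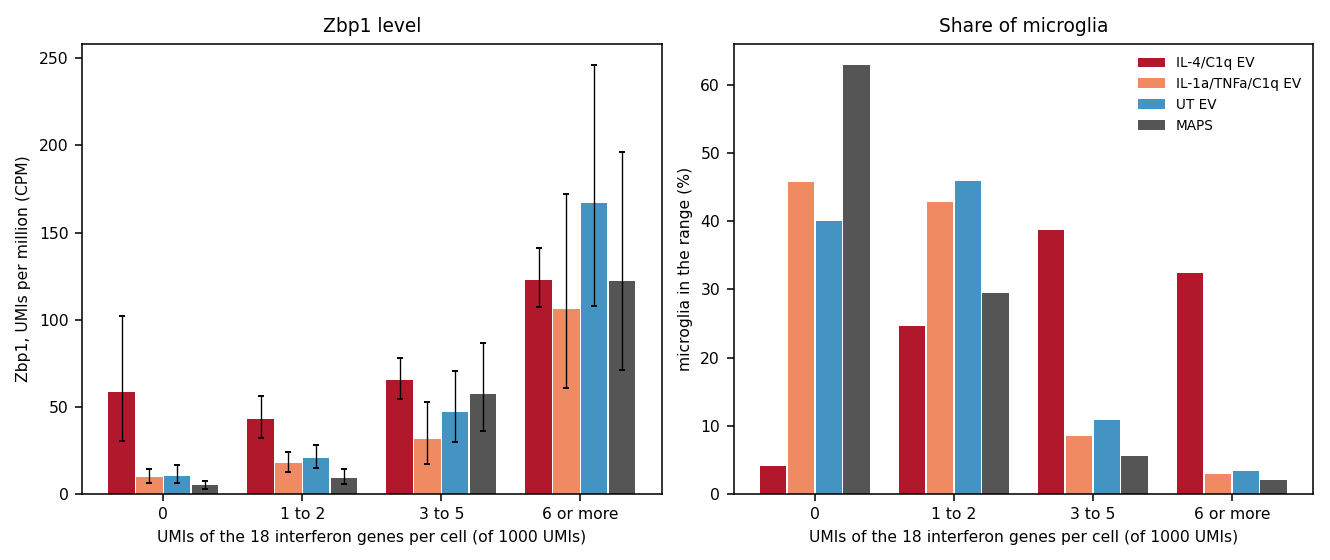
Left, Zbp1 level in CPM (vertical axis) in microglia thinned to 1000 UMIs, by the UMIs of 18 interferon response genes in the same cell (horizontal axis); right, the percentage of each library's microglia in each range. Bars are 1 library each and lines on the left are exact Poisson 95% intervals; in the top range the libraries lie at 106 to 167 CPM, while 32.4% of IL-4/C1q EV microglia fall there against 2.01% to 3.32% in the others.

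Over 60 sums of a library and class with at least 50 cells, the genes whose log2(CPM + 1) was most like that of each member were searched among 13022 genes. Zbp1 was most like Psmb9 (Pearson r = 0.89), Gm12250 (r = 0.889) and H2-T23 (r = 0.888). Gsdmd and Casp4 were each among the 3 genes most like the other (r = 0.884), and Tgfb1 came first for both (r = 0.893 for Gsdmd, r = 0.896 for Casp4). Cd48 came first for Pycard (r = 0.945) and second for Casp1 (r = 0.867). For Casp8 the nearest were H2-Q5 (r = 0.785), B2m (r = 0.78) and Ly6e (r = 0.772), and Mlkl, with 170 UMIs over all sums, was nearest to Iigp1 (r = 0.753). These sums share libraries, depths and classes, so the values describe these data alone.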

How the data were processed

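Raw UMI counts per gene and barcode were used as the authors deposited them. Cell Ranger 8.0.1 wrote the matrices, per the file headers, while Cell Ranger 7.0.0 stands in the submitters' processing notes, as do GRCm39, Seurat 4.1.0 and bcl2fastq 5.0.1; the annotation is not given in the sources used here. Per the labels, cells were made into 10x 3′ v3 libraries after removal of erythrocytes and dead cells, aiming at about 8000 cells each.

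Filters were a minimum of 500 UMIs and 300 genes per cell and a maximum of 20.0% for the mitochondrial share. Scrublet (scanpy 1.11.5) marked 3.63% to 5.23% of cells per library as doublets, which were left out. Each cell took the class with the highest mean of its markers' log-scaled counts, each divided by its median over cells holding it and capped at 2.0, with at least 3 markers detected and a lead of 0.1; this scoring was written after the data were seen, and the erythroid class, 11 to 370 cells per library, was gated and counted among the cells with a class but not compared. UMIs were summed per library and class and given as CPM with exact Poisson intervals, and ratios with exact conditional binomial (Clopper-Pearson) intervals. These cover counting error only. The ratio code was tested on simulated data. The members and lists were chosen with earlier results of these data known. All members are described; of other pathway genes, at most the 4 with the largest absolute log2 ratio among those with at least 100 UMIs over both libraries are named per class and comparison, and Nlrp3, named beside them, was chosen after its values were seen. The motif with a 1 base spacer, the classes compared among EV libraries alone and the interferon ranges outside microglia were added after seeing the data. Alternatives were a stricter gate (lead 0.2), 36 Leiden clusters (igraph 0.11.9), TMM (edgeR 4.0.16), median of ratios, thinning to 1000 UMIs, a shared floor of 1233 UMIs, doublets kept, at most 5% mitochondrial UMIs, and other UMI minimums.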

Additional observations from a re-analysis of the deposited data

Results flagged for a closer look

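Zbp1 differed in opposite directions in 2 cell classes under the same contrast. For IL-1a/TNFa/C1q EV over UT EV its CPM ratio was 2.03 (95% counting interval 1.59 to 2.6) in oligodendrocytes and 0.335 (0.247 to 0.449) in endothelial cells. With 1 library per group the difference between the classes was not tested.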

How the results depend on the processing

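The Zbp1 ratio of IL-4/C1q EV kept its direction in all 4 classes under all 8 alternatives run: over UT EV it ran from 3.1 to 4.21 in microglia, 2.36 to 3.18 in endothelial cells, 1.54 to 2.32 in monocytes/macrophages and 1.87 to 2.1 in T cells. Counts of members past 1.5-fold did move. The share of all genes past the fold is not given at these settings, so the moved counts cannot be set against it. With at least 100 UMIs, 0 were lower in microglia for IL-4/C1q EV over either other EV library, 1 was higher in endothelial cells for each of the same comparisons, and 0 were lower in T cells for IL-1a/TNFa/C1q EV over UT EV. With no UMI minimum, 2 were higher in microglia for IL-4/C1q EV over either other EV library and 1 for IL-1a/TNFa/C1q EV over UT EV; in endothelial cells 2 were lower for IL-4/C1q EV over IL-1a/TNFa/C1q EV, and 1 was higher and 2 lower for IL-1a/TNFa/C1q EV over UT EV. After thinning, 0 were lower in microglia for IL-4/C1q EV over either library; 1 was higher in endothelial cells for each, with 1 lower over UT EV; in T cells 2 were lower over UT EV, and for IL-4/C1q EV over IL-1a/TNFa/C1q EV 1 was lower; 1 was higher and 1 lower in monocytes/macrophages for IL-1a/TNFa/C1q EV over UT EV; and Casp4 in endothelial cells stood at 0.997 for IL-4/C1q EV over IL-1a/TNFa/C1q EV. In Leiden clusters, 0 were lower in microglia for IL-4/C1q EV over IL-1a/TNFa/C1q EV; in T cells 2 were higher over UT EV, 1 was lower over IL-1a/TNFa/C1q EV, and 1 was higher and 1 lower for IL-1a/TNFa/C1q EV over UT EV. With TMM, 1 was lower in T cells for both comparisons of IL-1a/TNFa/C1q EV, and the pathway medians (log2) for IL-1a/TNFa/C1q EV over UT EV were −0.02 in microglia, −0.10 in monocytes/macrophages and −0.08 in T cells, with 0.09 in T cells for IL-4/C1q EV over IL-1a/TNFa/C1q EV. Over MAPS in microglia, ratios that crossed 1 under TMM and median of ratios were 1.07 and 1.13 for Ripk1, 1.61 and 1.69 for Gsdmd, 1.04 and 1.09 for Casp4 and 1.45 and 1.52 for Casp8 in IL-4/C1q EV, 1.55 and 1.67 for Gsdmd and 1.37 and 1.48 for Casp8 in IL-1a/TNFa/C1q EV, and 1.51 and 1.60 for Gsdmd and 1.29 and 1.37 for Casp8 in UT EV, where Ripk1 was 1.06 with median of ratios. The cause of these moves was not tested, beyond that the UMI minimum and thinning change how many UMIs a gene has.

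Depth limits Ripk3 and Mlkl most: in microglia they rest on 29 to 169 and 2 to 14 UMIs per library. No paired analysis was possible because each group has 1 library. No replicate could be left out for the same reason.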

Other observations

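In monocytes/macrophages, endothelial cells and T cells, Zbp1 was also read in cells with 6 or more UMIs of the 18 interferon response genes, at 1000 UMIs per cell. In T cells it stood at 341 CPM in IL-4/C1q EV, 337 CPM in IL-1a/TNFa/C1q EV, 278 CPM in UT EV and 395 CPM in MAPS, and such cells made up 49.0%, 18.4%, 22.4% and 16.2% of the class. In monocytes/macrophages it stood at 423, 275, 425 and 217 CPM in the same libraries, with 76.2%, 39.9%, 50.2% and 46.0% of cells in the range. In endothelial cells it stood at 173, 36.9, 80.1 and 90.9 CPM, with 99.7%, 42.7%, 82.0% and 9.65% of cells in the range, so that in this class the 3 EV libraries differed within the top range as well. In MAPS these shares are of at most 132 endothelial cells and 51 monocytes/macrophages. Its values in both classes thus rest on few cells and few UMIs and are not ranked against the EV libraries. The range has no upper bound, and these values were chosen after seeing the data.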
